A study of Mus musculus with 8 samples.

Results

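The genes described here are 10 that phagocytes use to find and take up dead cells: the receptors Mertk, Axl, Tyro3 and Timd4, the integrin subunit Itgb5, the bridging proteins Gas6, Pros1 and Mfge8, and the engulfment proteins Elmo1 and Dock1. They were chosen by symbol, and all 10 were found among the 24786 genes counted in each library. PolyA RNA was sequenced from macrophages of the liver of C57BL/6 mice. Kupffer cells, which reside in the liver, and monocyte-derived macrophages (MoM) each came from dnTGFβRII mice (TG) and from wild-type mice (WT), with 2 libraries in each of the 4 groups. In the TG mice the CD4 promoter drives a dominant-negative form of TGF-β receptor II, so that the transgene is directed to T cells and not to macrophages, and cholangitis develops. The sources used here do not give the age or sex of the mice, how the cells were sorted, or whether animals were pooled.

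A dying cell exposes phosphatidylserine on its surface, and phagocytes recognise this lipid directly or through soluble bridging proteins. TIM-4, the product of Timd4, binds phosphatidylserine itself. The receptor tyrosine kinases MERTK, AXL and TYRO3 (the TAM receptors) bind it through GAS6 or protein S, the product of Pros1, and the integrin that holds the β5 subunit binds it through MFG-E8, the product of Mfge8. The ELMO1 and DOCK1 proteins form a complex that activates RAC and reshapes the actin cytoskeleton around the meal. Kupffer cells are known for high TIM-4 and for clearing dying blood cells and hepatocytes from the liver.

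The total per library ranged from 26190194 to 30308132 counts, over 15366 to 17674 detected genes. Levels are CPM, the count relative to a library size scaled by TMM, and 1 count equals 0.0309 to 0.0378 CPM. The Kupffer cell marker Clec4f had 2736 to 12310 CPM in the 4 Kupffer libraries, 3599 and 33.3 CPM in MoM WT, and 125.2 and 45.58 CPM in MoM TG. MoM WT replicate 1 was thus above Kupffer TG replicate 2, so this marker did not separate the 2 labels. The monocyte marker Ccr2 was 4.92 ± 0.52 higher (log2 fold change ± SE) in MoM than in Kupffer cells of WT mice (adjusted p = 0.0260, edgeR). Tgfbr2 had 345.1 and 349.2 CPM in Kupffer WT, 289.4 and 318.6 CPM in Kupffer TG and 173.9 to 249.0 CPM in the 4 MoM libraries, and it did not pass the test in any comparison. Some libraries stood apart from their groups. The 10 Kupffer cell markers summed to 9677 CPM in MoM WT replicate 1 but to 326.4, 725.0 and 486.9 CPM in the other MoM libraries. The 12 endothelial cell markers summed to 11930 CPM in Kupffer TG replicate 2 but to 1707, 2007 and 2537 CPM in the other Kupffer libraries. By Spearman's correlation over the genes tested, Kupffer TG replicate 2 was closest to MoM WT replicate 1 (0.954), against 0.895 to 0.909 with the other Kupffer libraries. In MoM TG replicate 2, the 10 neutrophil markers summed to 3649 CPM and the 12 monocyte markers to 5764 CPM, against 123.0 and 2513 CPM in MoM TG replicate 1. Results that rest on MoM WT replicate 1 or Kupffer TG replicate 2 are given with and without them. For Gas6 and Anxa1, a difference without MoM TG replicate 2 is given as well. Nothing in the labels ties replicates to separate animals, so p-values measure only the spread between these libraries.

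In WT mice, the receptor genes Mertk, Axl, Timd4 and Itgb5 lay below Kupffer cells in both MoM libraries, and in TG mice they did so again, but none of the differences passed the test over all genes (edgeR's quasi-likelihood test, Benjamini-Hochberg adjusted p below 0.05). These 4 genes are taken first, with the promoter of each, since their levels went up and down together across libraries. The windows are the 250 bases before the RefSeq start site on GRCm38.p6, read on the gene's own strand, with CG dinucleotides in capitals. The Mertk window lies at chr2:128698665-128698914 (+), that of Axl at chr7:25788734-25788983 (-), that of Timd4 at chr11:46810549-46810798 (+) and that of Itgb5 at chr16:33829415-33829664 (+).
Mertk: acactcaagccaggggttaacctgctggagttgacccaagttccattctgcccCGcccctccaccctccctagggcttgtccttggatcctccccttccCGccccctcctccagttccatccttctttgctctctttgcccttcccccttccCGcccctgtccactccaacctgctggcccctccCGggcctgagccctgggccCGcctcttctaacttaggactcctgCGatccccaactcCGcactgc
Axl: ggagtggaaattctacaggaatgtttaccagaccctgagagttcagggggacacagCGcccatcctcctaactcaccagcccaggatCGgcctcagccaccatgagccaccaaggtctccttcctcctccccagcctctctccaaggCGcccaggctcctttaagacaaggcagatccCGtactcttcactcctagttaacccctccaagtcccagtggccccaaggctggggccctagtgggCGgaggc
Timd4: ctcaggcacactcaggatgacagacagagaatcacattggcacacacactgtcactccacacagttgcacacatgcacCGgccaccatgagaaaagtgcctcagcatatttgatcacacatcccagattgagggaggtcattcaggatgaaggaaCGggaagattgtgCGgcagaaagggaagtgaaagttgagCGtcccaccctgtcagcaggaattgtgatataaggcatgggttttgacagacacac
Itgb5: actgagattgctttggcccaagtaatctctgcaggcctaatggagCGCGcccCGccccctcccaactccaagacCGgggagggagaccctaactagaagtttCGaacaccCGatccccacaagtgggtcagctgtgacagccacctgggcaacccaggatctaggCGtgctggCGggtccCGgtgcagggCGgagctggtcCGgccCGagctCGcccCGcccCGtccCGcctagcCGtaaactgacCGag

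The windows of Timd4, Axl and Mertk held 4, 5 and 7 CG dinucleotides and that of Itgb5 held 18, against a median of 6 over 32851 RefSeq windows of the same length. The GC content was 60.0% for Axl, 63.6% for Mertk and 65.2% for Itgb5, and that of Timd4 was lower than these. The 6 motifs searched on both strands were the ETS core GGAAGT, the MAF half-site TGCTGA, the nuclear receptor half-site AGGTCA, the TATA box TATAAA, the CCAAT box and the E-box CACGTG. The Timd4 window held the ETS core 72 bases before the start, the nuclear receptor half-site at 116 bases, the MAF half-site on the other strand at 150 and at 44 bases, and the CCAAT box on the other strand at 215 bases. None of the 6 motifs was in the Mertk, Axl or Itgb5 window. Of all windows, 19.7% held the ETS core, 16.1% the MAF half-site, 14.0% the nuclear receptor half-site, 12.4% the TATA box, 33.9% the CCAAT box and 6.02% the E-box.

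Mertk, a TAM receptor of resting tissue macrophages, had 808.2 and 926.6 CPM in Kupffer WT, 776.0 and 588.7 CPM in Kupffer TG, 393.1 and 56.98 CPM in MoM WT, and 32.38 and 58.22 CPM in MoM TG. Each of the 4 Kupffer libraries was above each MoM library, and MoM WT replicate 1 was the highest of the MoM libraries. The log2 difference of MoM from Kupffer cells was -1.95 ± 0.83 (SE) in WT mice (adjusted p = 0.203, edgeR) and -3.91 ± 0.90 in TG mice (adjusted p = 0.0720). The gene lies on chromosome 2 (GRCm38, 128698956 to 128802894, plus strand).

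Axl, the TAM receptor that signals through GAS6, had 2678 and 2705 CPM in Kupffer WT, 2217 and 1176 CPM in Kupffer TG, 816.8 and 190.5 CPM in MoM WT, and 277.2 and 200.7 CPM in MoM TG. The Kupffer and MoM libraries again did not overlap, with Kupffer TG replicate 2 the lowest of the former and MoM WT replicate 1 the highest of the latter. The mean level in MoM WT was 5.34-fold lower than in Kupffer WT, a log2 difference of -2.42 ± 0.71 (adjusted p = 0.121, edgeR), and in TG mice the difference was -2.83 ± 0.72 (adjusted p = 0.0832). The gene lies on chromosome 7 (25757273 to 25788705, minus strand).

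Timd4 had 808.4 and 807.5 CPM in Kupffer WT, 897.0 and 414.4 CPM in Kupffer TG, 242.4 and 8.43 CPM in MoM WT, and 22.6 and 17.0 CPM in MoM TG. The MoM WT replicates differed 28.8-fold, the largest ratio between replicates of 1 group for Timd4, whereas the Kupffer WT replicates were within 1 CPM of each other. MoM differed from Kupffer cells by -2.69 ± 1.29 in WT mice (adjusted p = 0.238, edgeR) and by -5.05 ± 1.44 in TG mice (adjusted p = 0.0999). The gene lies on chromosome 11 (46810800 to 46844332, plus strand).

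Itgb5 had 828.6 and 886.7 CPM in Kupffer WT, 412.6 and 252.0 CPM in Kupffer TG, 298.9 and 45.46 CPM in MoM WT, and 115.7 and 40.75 CPM in MoM TG. Both Kupffer TG libraries were below both Kupffer WT libraries. The ranges of Kupffer TG and MoM WT overlapped for Itgb5, whereas they did not for Mertk, Axl and Timd4. MoM differed from Kupffer cells by -2.32 ± 0.91 in WT mice (adjusted p = 0.183, edgeR) and by -2.09 ± 0.90 in TG mice (adjusted p = 0.215). The gene lies on chromosome 16 (33829665 to 33949338, plus strand).

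**Figure D1:**
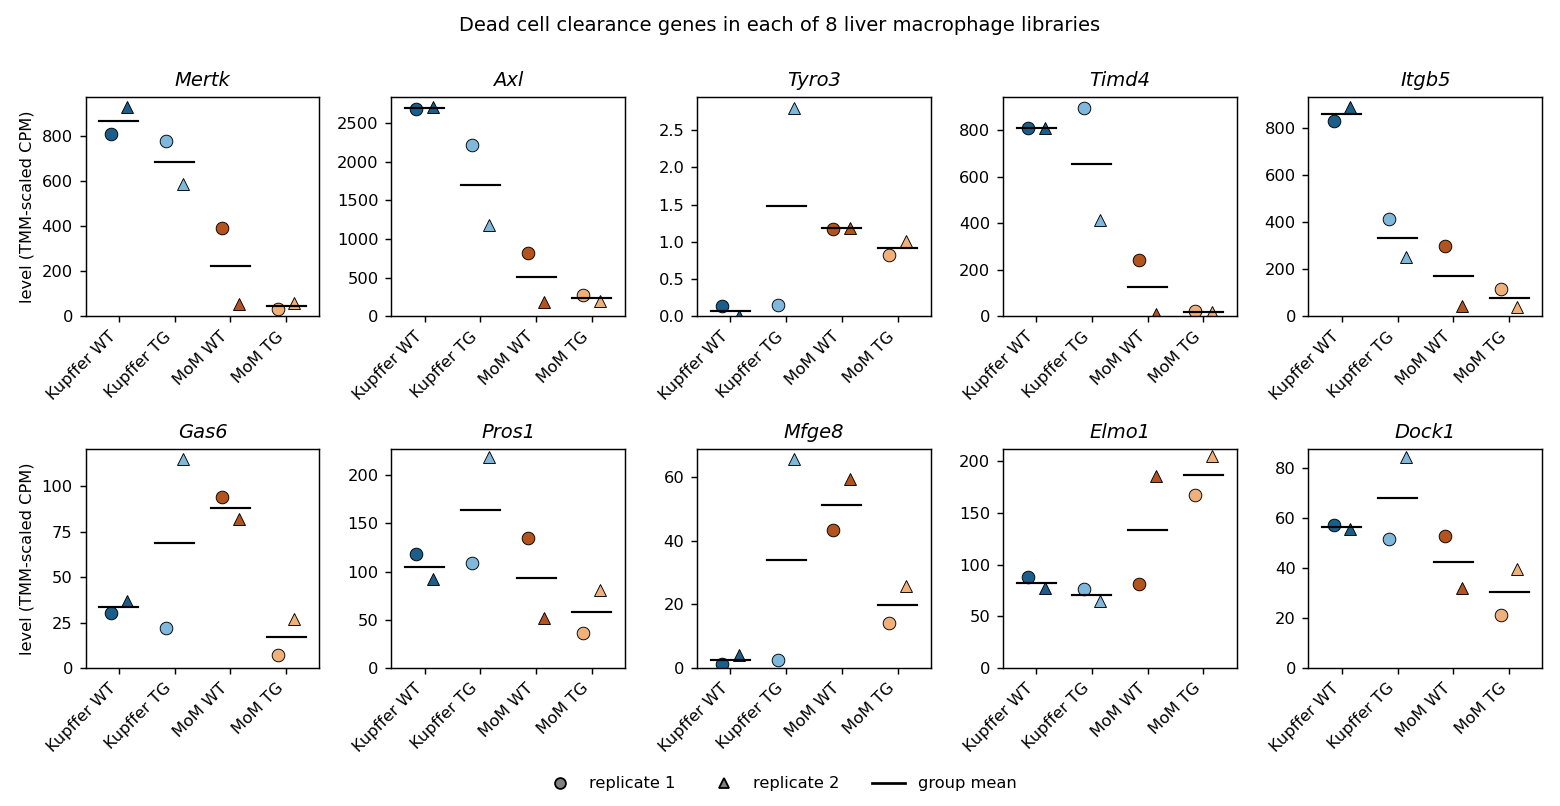
Level of each of the 10 genes (y axis, TMM-scaled CPM, a scale of its own in each panel) in Kupffer WT, Kupffer TG, MoM WT and MoM TG (x axis), with a point for each library and a line at the group mean. Mertk, Axl and Timd4 had every Kupffer library above every MoM library, Elmo1 was highest in MoM TG, and Mfge8 was under 4 CPM in 3 of the 4 Kupffer libraries.

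The Kupffer cell markers moved with the receptor genes in the MoM libraries. In MoM WT replicate 1, Mertk was at 45.3%, Axl at 30.4%, Timd4 at 30.0% and Itgb5 at 34.9% of its Kupffer WT mean, and the median of the 10 Kupffer cell markers was at 30.9%. In MoM WT replicate 2 the same values were 6.57%, 7.08%, 1.04% and 5.30%, beside 0.907% for the markers. In MoM TG replicates 1 and 2, Mertk was at 3.73% and 6.71%, Axl at 10.3% and 7.46%, Timd4 at 2.79% and 2.10%, and Itgb5 at 13.5% and 4.75%, beside 1.88% and 1.37% for the markers. Axl therefore stood above the marker median in MoM WT replicate 2 and in both MoM TG libraries, as did Mertk, Itgb5 and, by less, Timd4. The markers themselves ranged from 0.279% to 19.8% in MoM WT replicate 2, from 1.05% to 21.9% in MoM TG replicate 1 and from 0.382% to 21.2% in MoM TG replicate 2, and the top of each range was Id3 alone. The next marker was Clec1b at 3.96% in MoM WT replicate 2, and Marco at 11.8% and 7.38% in MoM TG replicates 1 and 2. Mertk, Axl and Itgb5 were above it in MoM WT replicate 2, Itgb5 in MoM TG replicate 1 and Axl in MoM TG replicate 2. All 4 receptor genes were below Id3. All 10 markers were detected in every library. The 7 pan-macrophage markers were lower in MoM as well, summing to 7338 and 2278 CPM in MoM WT and to 4570 and 6829 CPM in MoM TG. They summed to 18520 and 18640 CPM in Kupffer WT and to 17020 and 9090 CPM in Kupffer TG. The part of Kupffer cell RNA, or of macrophage RNA of any kind, in the MoM levels was not tested. In such bulk samples, fewer cells of a type and less RNA per cell cannot be told apart.

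Without MoM WT replicate 1, Mertk, Axl and Timd4 fell in MoM of WT mice, with log2 differences of -3.94, -3.83 and -6.59 (adjusted p = 0.0322, 0.0343 and 0.0301, edgeR), where 4.59% of all genes were called. The lone MoM WT library is then assumed to vary like the other groups. Without Kupffer TG replicate 2 as well, an alternative chosen after seeing the data, 6 of the 10 genes were called in WT mice, where 17.1% of all genes were. Mertk (-3.96 ± 0.47), Axl (-3.86 ± 0.40), Timd4 (-6.62 ± 0.42) and Itgb5 (-4.28 ± 0.78) were lower in MoM, and Mfge8 (4.46 ± 0.68) and Elmo1 (1.13 ± 0.23) were higher. In TG mice the same setting called 4 of the 10, against 13.6% of all genes: Mertk (-4.21 ± 0.38), Axl (-3.31 ± 0.31) and Timd4 (-5.61 ± 0.30) lower, and Elmo1 (1.17 ± 0.26) higher. Leaving out MoM WT replicate 1 or 2 alone also gave these 4 calls in TG mice, where 6.33% and 6.54% of all genes were called.

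**Figure D2:**
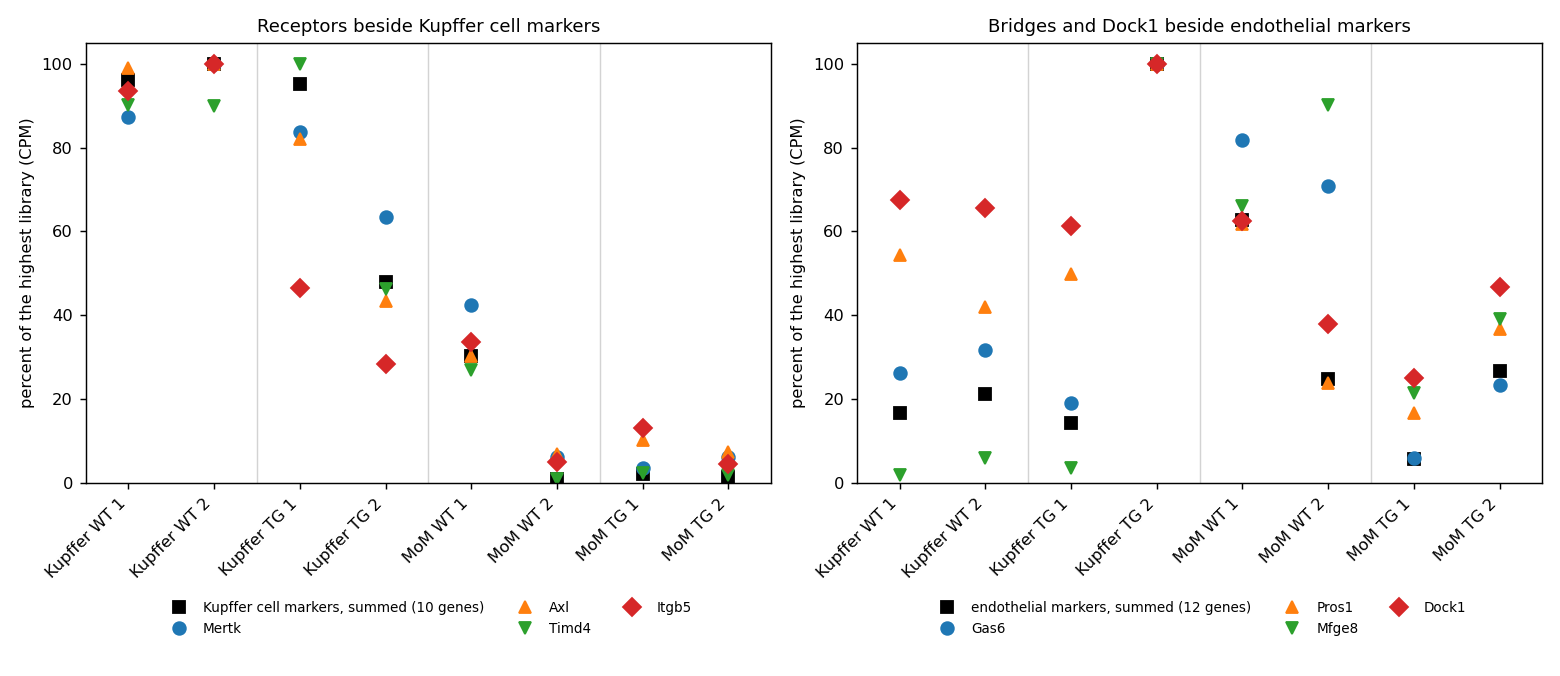
Level in each library as a percent of the highest library (y axis, from CPM), for the receptor genes beside 10 summed Kupffer cell markers on the left, and for Gas6, Pros1, Mfge8 and Dock1 beside 12 summed endothelial markers on the right. MoM WT replicate 1 holds the highest Kupffer cell marker sum of the MoM libraries, and all 4 genes on the right and the endothelial sum peak in Kupffer TG replicate 2.

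Tyro3, the remaining TAM receptor, was near the limit of detection. Its counts were 4 and 0 in Kupffer WT, 4 and 76 in Kupffer TG, 38 and 37 in MoM WT, and 22 and 29 in MoM TG. Kupffer TG replicate 2 was the highest of all libraries, whereas the other Kupffer libraries were at or near the 3 counts that a count of 0 allows. It passed the filter on low counts through the groups where it is higher, so no fold is given beside these counts, and it did not pass the test in any comparison in edgeR. DESeq2 on the 4 WT libraries alone called it between MoM and Kupffer cells (adjusted p = 0.0451). That call rests on the near absence of counts in Kupffer WT. Tyro3 lies on chromosome 2 (119797733 to 119818104, plus strand).

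The bridging genes had no common pattern between Kupffer cells and MoM. The highest value of each was in Kupffer TG replicate 2, the library with the highest endothelial marker sum. Gas6, the ligand of all TAM receptors, had 30.31 and 36.7 CPM in Kupffer WT, 22.11 and 115.4 CPM in Kupffer TG, 94.46 and 81.82 CPM in MoM WT, and 6.93 and 27.0 CPM in MoM TG. MoM WT was above Kupffer WT and above MoM TG in both libraries, while the Kupffer TG replicates differed 5.22-fold. The log2 difference of MoM from Kupffer cells was 1.40 ± 0.86 in WT mice (adjusted p = 0.327, edgeR) and -2.02 ± 0.88 in TG mice (adjusted p = 0.216), where it was -0.50 without Kupffer TG replicate 2. Gas6 lies on chromosome 8 (13465374 to 13494490, minus strand) and overlaps Tmem255b on the other strand, whose reads cannot be told apart here because the strand setting of the counting is not given.

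Pros1, which encodes the anticoagulant protein S, had 118.6 and 91.8 CPM in Kupffer WT, 108.9 and 218.3 CPM in Kupffer TG, 134.8 and 52.25 CPM in MoM WT, and 36.56 and 80.43 CPM in MoM TG. The WT groups overlapped, and in TG mice both MoM libraries were below both Kupffer libraries. The log2 difference was -0.17 ± 0.59 in WT mice (adjusted p = 0.872, edgeR) and -1.48 ± 0.61 in TG mice (adjusted p = 0.192). Pros1 lies on chromosome 16 (62854307 to 62929346, plus strand) and Mfge8 on chromosome 7 (79133768 to 79149060, minus strand).

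Mfge8 had 1.29 and 3.995 CPM in Kupffer WT, 2.34 and 65.6 CPM in Kupffer TG, 43.3 and 59.2 CPM in MoM WT, and 14.0 and 25.65 CPM in MoM TG. All 4 MoM libraries were above the Kupffer libraries other than Kupffer TG replicate 2, which was the highest of all. The mean level in MoM WT was 19.4-fold that in Kupffer WT, a log2 difference of 4.28 ± 1.45 (adjusted p = 0.149, edgeR). It was called without Kupffer TG replicate 1 (4.24, adjusted p = 0.0162) and without Kupffer TG replicate 2 (4.24, adjusted p = 0.0148), where 8.63% and 9.03% of all genes were called. In TG mice the difference was -0.78 ± 1.27 (adjusted p = 0.729, edgeR), and without Kupffer TG replicate 2 it was 2.97 (adjusted p = 0.0743), the opposite direction.

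The endothelial marker sum was 2007 and 2537 CPM in Kupffer WT, 1707 and 11930 CPM in Kupffer TG, 7490 and 2948 CPM in MoM WT, and 677.2 and 3181 CPM in MoM TG. All 12 markers were detected in every library. Kdr, the VEGF receptor of endothelium, had 1107 CPM in Kupffer TG replicate 2, 945.7 CPM in MoM WT replicate 1 and 17.0 CPM in Kupffer WT replicate 1, whereas Cdh5, another of the markers, was highest in Kupffer WT (1277 and 1300 CPM). The 10 stellate cell and fibroblast markers summed to 195.8 CPM in Kupffer TG replicate 2 and to 7.19 to 102.7 CPM in the other libraries. The part of endothelial or stellate cell RNA in the levels of Gas6, Pros1 and Mfge8 was not tested.

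The engulfment genes went in opposite directions in MoM of TG mice. Elmo1 had 87.67 and 77.13 CPM in Kupffer WT, 76.73 and 65.33 CPM in Kupffer TG, 81.46 and 185.9 CPM in MoM WT, and 168.0 and 205.4 CPM in MoM TG. MoM WT replicate 1 was within the range of the Kupffer libraries, and the other 3 MoM libraries were above all of them. The log2 difference of MoM from Kupffer cells was 0.70 ± 0.39 in WT mice (adjusted p = 0.283, edgeR), and it was -0.018 without MoM WT replicate 2. In TG mice it was 1.39 ± 0.39 (adjusted p = 0.0972, edgeR).

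Dock1 had 57.2 and 55.5 CPM in Kupffer WT, 51.8 and 84.65 CPM in Kupffer TG, 52.8 and 32.0 CPM in MoM WT, and 21.3 and 39.6 CPM in MoM TG. Both MoM libraries were below both Kupffer libraries in each genotype, by -0.41 ± 0.41 in WT mice (adjusted p = 0.538, edgeR) and by -1.16 ± 0.41 in TG mice (adjusted p = 0.148). The highest level was again in Kupffer TG replicate 2, the library with the highest endothelial marker sum. Elmo1 lies on chromosome 13 (20090596 to 20608353, plus strand) and Dock1 on chromosome 7 (134670654 to 135173639, plus strand), and Dock1 overlaps Fam196a on the other strand.

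In WT mice, edgeR called 0 of the 10 genes between MoM and Kupffer cells, against 1.17% of all genes tested, with 3 at an unadjusted p below 0.05 against 25.4%, and DESeq2 called 3 (Axl and Itgb5 lower, Mfge8 higher), against 18.5% of all genes. Both MoM WT libraries were above both Kupffer WT libraries for 3 of the 10 genes, against 38.5% of all genes, and below them for 5, against 29.7%. In TG mice, edgeR called 0 of the 10, against 2.50% of all genes, with 6 at an unadjusted p below 0.05 against 25.4%, and DESeq2 called 4 (Mertk, Axl and Timd4 lower, Elmo1 higher), against 16.9%. Both MoM TG libraries were above both Kupffer TG libraries for 1 of the 10 genes, against 29.1% of all genes, and below them for 6, against 23.8%. On only the 4 libraries compared, an alternative added after seeing the data, DESeq2 called 6 of the 10 genes in WT mice, against 24.3% of all genes, and 7 in TG mice, against 22.8%. Tyro3 was among the 6 (adjusted p = 0.0451, DESeq2), with 4 and 0 counts in Kupffer WT, so its call carries no weight. On the same 4 libraries edgeR called 2 in WT mice (Gas6 and Mfge8), against 10.9%. The median log2 difference of MoM from Kupffer cells over the 10 genes was -0.29 in WT and -1.75 in TG mice, beside 0.11 and -0.04 over all 15254 genes tested.

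**Figure D3:**
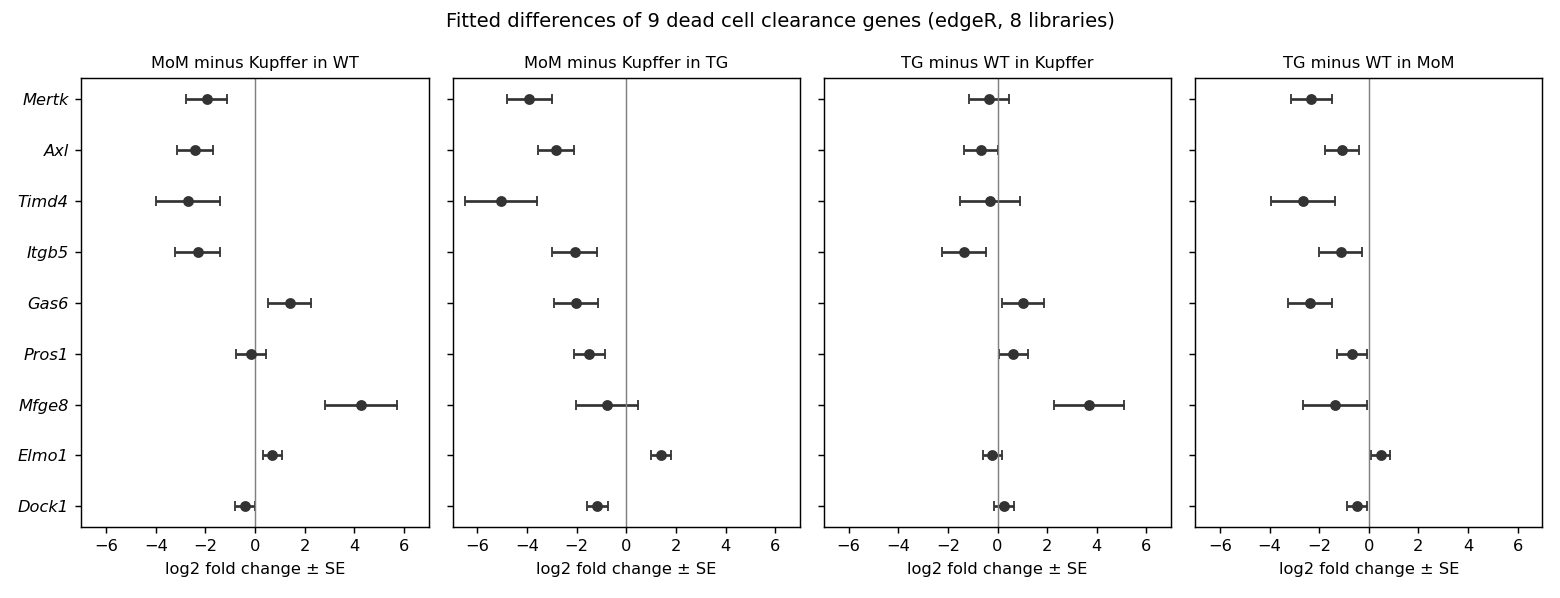
Log2 fold change with its SE (x axis, edgeR fit of 8 libraries) of 9 of the 10 genes in 4 comparisons, one per panel, with Tyro3 left out because it was nearly undetected in Kupffer WT. Mertk, Axl, Timd4 and Itgb5 lay below 0 in both comparisons of MoM with Kupffer cells, and none of the points passed the adjusted test.

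The genotype comparisons asked how the genes differed between TG and WT mice within each kind of macrophage. In Kupffer cells, edgeR called 0 of the 10 genes, against 0% of all genes tested, with 2 at an unadjusted p below 0.05 (Mfge8 and Tyro3) against 5.94%, and DESeq2 called 0, against 1.79%. Both TG libraries were below both WT libraries for 4 genes (Mertk, Axl, Itgb5 and Elmo1), against 17.7% of all genes, and above them for 1 (Tyro3, by 4 counts in TG replicate 1 against 4 in WT replicate 1), against 16.7%. The Itgb5 mean was 332.3 ± 113.5 CPM (SD, n = 2) in Kupffer TG and 857.6 ± 41.0 CPM (n = 2) in Kupffer WT, a log2 difference of -1.37 ± 0.88 (adjusted p = 0.769, edgeR). DESeq2 fitted to the 4 Kupffer libraries alone, added after seeing the data, gave -1.35 (adjusted p = 0.0127), with 1.35% of all genes called. The Kupffer cell markers moved with it in part. Itgb5 was at 48.1% and 29.4% of its Kupffer WT mean in Kupffer TG replicates 1 and 2, beside a marker median of 99.1% and 54.1%. The 4 lowest of the 10 markers in both libraries were Clec4f at 55.0% and 22.9%, Folr2 at 59.1% and 31.7%, Vsig4 at 69.9% and 46.4%, and Slc40a1 at 73.3% and 32.8%. Another marker, Marco, was at 768.1% and 462.8%, and the part of these markers' cells in the Itgb5 level was not tested. The authors' deposited table of TG against WT lists 179 genes without naming the cell type, and its mean normalized count was within 10% of the mean count of the 4 Kupffer libraries for 179 of them and of the 4 MoM libraries for 15. In the authors' deposited table, Itgb5 is the one of the 10 genes present, with a log2 fold change of -1.35, an SE of 0.35 and an adjusted p of 0.0118. By its mean counts that table appears to rest on the same 4 Kupffer libraries, so its values are no independent result. Without Kupffer TG replicate 2, the difference in Itgb5 was -1.01.

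Among the 10 genes, the largest fitted difference with genotype in Kupffer cells, Tyro3 aside, was that of Mfge8 at 3.68 ± 1.41 (adjusted p = 0.731, edgeR). It rested on Kupffer TG replicate 2: without that library it was -0.11, and without Kupffer TG replicate 1 it was 4.62 (adjusted p = 0.0400), where 1.61% of all genes were called. Gas6 behaved likewise, at 1.04 ± 0.85 with all libraries and -0.55 without Kupffer TG replicate 2. For Mertk (-0.35 ± 0.80) and Axl (-0.67 ± 0.68), the difference was smaller than its SE, and Timd4 (-0.30 ± 1.21) turned to 0.20 without that library.

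In MoM, edgeR called 0 of the 10 genes between TG and WT, against 0% of all genes, with 2 at an unadjusted p below 0.05 (Mertk and Gas6) against 6.47%, and DESeq2 called 0, against 1.01%. Both TG libraries were below both WT libraries for 3 genes (Gas6, Mfge8 and Tyro3), against 20.0% of all genes, and above them for 0, against 19.2%. The Gas6 difference was -2.38 ± 0.89 (adjusted p = 0.755, edgeR), and DESeq2 on the 4 MoM libraries alone gave -2.39 (adjusted p = 0.0262), with 1.47% of all genes called. On leaving out 1 library the Gas6 difference ranged from -3.67 without MoM TG replicate 2 to -1.70 without MoM TG replicate 1, and these 2 replicates had 27.0 and 6.93 CPM. The differences of Mertk (-2.31 ± 0.84) and Timd4 (-2.67 ± 1.29) were -0.32 and 1.24 without MoM WT replicate 1.

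The interaction, the genotype difference in MoM minus that in Kupffer cells, was called by edgeR for 0 of the 10 genes, against 0% of all genes, with 2 at an unadjusted p below 0.05 (Gas6 and Mfge8) against 6.42%, and by DESeq2 for 0, against 0.289%. It was -3.41 ± 1.23 for Gas6 (adjusted p = 0.626, edgeR) and -5.05 ± 1.90 for Mfge8 (adjusted p = 0.626). Without Kupffer TG replicate 2, where both genes were highest, these values were -1.85 and -1.27.

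Levels were compared between genes as CPM per kb of exon. In Kupffer WT, Axl had 534.8 ± 3.8 CPM per kb (SD, n = 2), Timd4 371.8 ± 0.3, Itgb5 241.4 ± 11.6 and Mertk 200.0 ± 19.3. These 4 receptor genes stood above the bridges and engulfment genes there, unlike the receptor Tyro3, the lowest of the 10 at 0.0116 CPM per kb, with Pros1 at 25.7 ± 4.6, Gas6 at 13.2 ± 1.8, Elmo1 at 6.55 ± 0.59, Dock1 at 6.04 ± 0.13 and Mfge8 at 0.563 ± 0.407 CPM per kb. In MoM TG, Axl still led with 47.5 ± 10.7 CPM per kb, followed by Itgb5 (22.0 ± 14.9), Elmo1 (14.8 ± 2.1), Pros1 (14.3 ± 7.6), Mertk (10.5 ± 4.2) and Timd4 (9.10 ± 1.81), and the ranges of those after Axl overlapped in part.

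**Figure D4:**
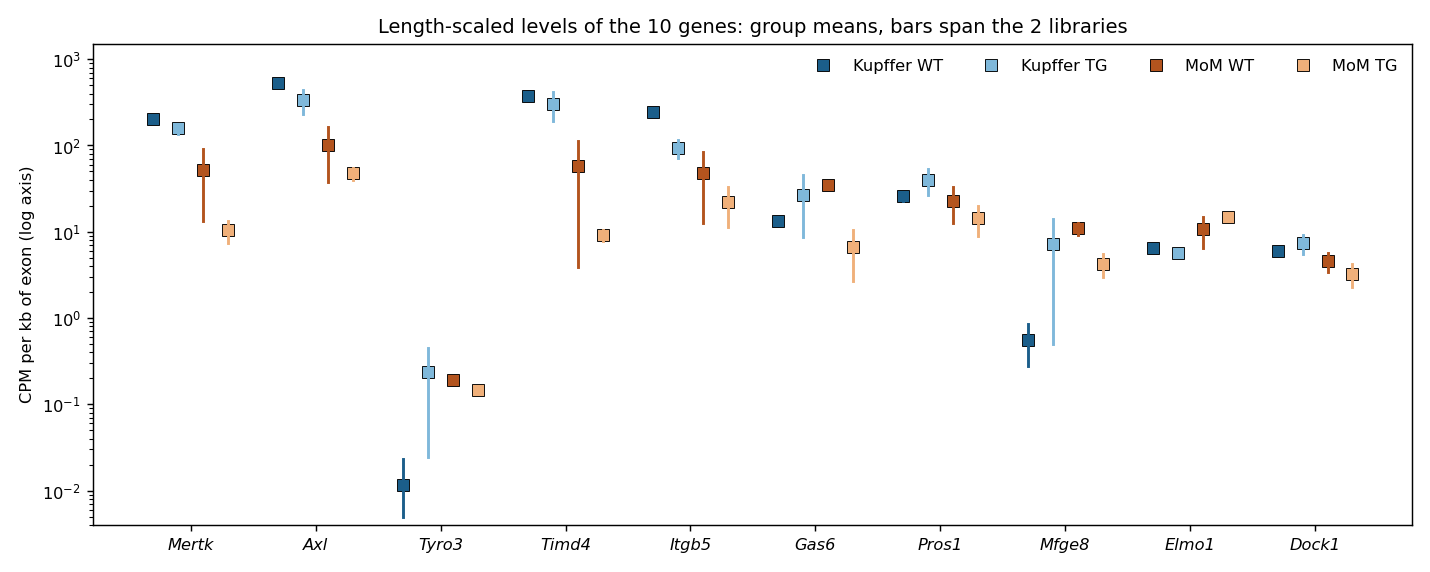
Level per kb of exon (y axis, CPM per kb, log axis) of the 10 genes in the 4 groups, with squares at the group means and bars spanning the 2 libraries. The Tyro3 bar of Kupffer WT reaches 0, below the axis, and Axl is the highest gene in each of the 4 groups.

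Ratios within a library do not depend on its depth. The TAM receptors together had 17.3 to 19.9 times the length-scaled level of Gas6, Pros1 and Mfge8 together in Kupffer WT and Kupffer TG replicate 1. Mfge8 is in this sum as a bridge, although its product binds the integrin and not the TAM receptors. The ratio was 3.28 in Kupffer TG replicate 2, 3.19 and 0.890 in MoM WT, and 4.28 and 1.50 in MoM TG, so these 5 libraries lay below the other Kupffer libraries. Elmo1 relative to Dock1 was 1.03 to 1.14 in Kupffer WT, Kupffer TG replicate 1 and MoM WT replicate 1, and 0.572 in Kupffer TG replicate 2. It was 4.30 in MoM WT replicate 2 and 5.85 and 3.85 in MoM TG, above all of these. Axl relative to Mertk was 1.72 to 2.97 in all libraries but MoM TG replicate 1, where it was 7.38.

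Over the 8 libraries, Pearson's r of log2(CPM + 0.5) was 0.892 to 0.985 between each pair of Mertk, Axl, Timd4 and Itgb5, and -0.862 to -0.941 between Elmo1 and each of them. Pros1 and Dock1 had r = 0.970, and Tyro3 and Mfge8 had r = 0.918. Tyro3 had 4 and 0 counts in Kupffer WT and 4 in Kupffer TG replicate 1, where the added 0.5 mostly sets its value. Gas6 and Axl, ligand and receptor, had r = 0.097. The points share the 4 groups and the libraries that stand apart, so these values are descriptions.

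The rest of the pathway was read from 4 lists of 65 genes, of which 62 were tested. In WT mice, 1 of the 62 was higher in MoM than in Kupffer cells and 0 lower, against 1.11% and 0.0590% of all genes. In TG mice, 3 were higher and 0 lower, against 1.84% and 0.656%. In each of these comparisons, 23 of the 62 had an unadjusted p below 0.05 in edgeR, against 25.4% of all genes. DESeq2 called 24 in WT and 19 in TG mice, against 18.5% and 16.9% of all genes.

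Anxa1 encodes annexin A1, a phosphatidylserine-binding protein that dampens inflammation. It had 0.575 and 0.485 CPM in Kupffer WT, 3.10 and 17.2 CPM in Kupffer TG, 58.7 and 86.7 CPM in MoM WT, and 64.75 and 194.1 CPM in MoM TG. Each MoM library was above each Kupffer library, and the gene rose in MoM of WT mice by 7.09 ± 1.09 (adjusted p = 0.0475, edgeR). The call ended on leaving out either Kupffer WT library, either MoM TG library or MoM WT replicate 2 (adjusted p = 0.0999 to 0.386), with a difference of 6.78 to 7.19. In TG mice the difference was 3.67 ± 0.90 (adjusted p = 0.0780, edgeR), and it was 2.67 without MoM TG replicate 2, the library with the most neutrophil and monocyte markers.

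Havcr2, the gene of the phosphatidylserine receptor TIM-3, had 19.2 and 14.1 CPM in Kupffer WT, 7.07 and 19.5 CPM in Kupffer TG, 126.9 and 185.7 CPM in MoM WT, and 300.0 and 233.2 CPM in MoM TG. It rose in MoM of TG mice by 4.33 ± 0.55 (adjusted p = 0.0304, edgeR), and the difference in WT mice was 3.23 ± 0.52 (adjusted p = 0.0502). So Havcr2 was higher, and Timd4 lower, in each MoM library than in each Kupffer library, although both encode TIM-family receptors of phosphatidylserine. The Timd4 difference did not pass the test with all 8 libraries.

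Among engulfment genes, Abca7, a lipid transporter, rose in MoM of TG mice by 1.72 ± 0.28 (adjusted p = 0.0433, edgeR), with 90.0 and 66.8 CPM in Kupffer TG and 312.9 and 205.0 CPM in MoM TG. Dock5, a relative of Dock1, rose by 1.96 ± 0.35 (adjusted p = 0.0476, edgeR), with 92.3 and 50.1 CPM in Kupffer TG and 315.9 and 239.0 CPM in MoM TG. The groups did not overlap for either gene, and in MoM TG Dock5 was higher while Dock1 was below its Kupffer TG range. The calls of Havcr2, Abca7 and Dock5 ended without Kupffer TG replicate 1, without either Kupffer WT library or without either MoM TG library (adjusted p = 0.0905 to 0.242), and those of Abca7 and Dock5 also without Kupffer TG replicate 2 (adjusted p = 0.0687 and 0.0583).

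Dock5 also missed the threshold with median-of-ratios size factors (adjusted p = 0.0546, edgeR) and with a replicate block (adjusted p = 0.0584), and Abca7 without both Kupffer TG replicate 2 and MoM WT replicate 1 (adjusted p = 0.0611). With edgeR on only the 4 TG libraries, none of Havcr2, Abca7 and Dock5 was called (adjusted p = 0.0996, 0.126 and 0.133).

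Markers of other cell types were higher in MoM along with Anxa1, Havcr2, Abca7 and Dock5. The 10 dendritic cell markers summed to 1538 to 2573 CPM in the MoM libraries and to 64.25 to 281.3 CPM in the Kupffer libraries. The 12 monocyte markers summed to 1098 to 5764 CPM in MoM and to 284.2 to 557.3 CPM in Kupffer libraries, without overlap. The 10 neutrophil markers did not overlap either, at 57.56 to 3649 CPM in MoM and 2.119 to 36.33 CPM in Kupffer libraries. Nor did the 6 B cell markers, at 145.2 to 284.6 CPM in MoM and 95.31 to 133.6 CPM in Kupffer libraries. For the 7 NK cell markers the sums overlapped, at 74.26 to 490.7 CPM in MoM and 62.46 to 191.8 CPM in Kupffer libraries, as they did for the 6 markers of mast cells or basophils, at 19.64 to 123.6 and 0.862 to 31.71 CPM. The part of RNA from such cells in these 4 genes was not tested.

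Genes that did not pass the test included Abca1, a cholesterol exporter, at -3.06 ± 0.72 in WT mice (adjusted p = 0.0903, edgeR) and Rxra, a partner of the nuclear receptors that sense lipids taken up with dead cells, at -3.17 ± 0.66 in TG mice (adjusted p = 0.0623). The sheddases Adam10 and Adam17, the latter of which cleaves MERTK from the surface, were at -1.33 ± 0.26 and -1.51 ± 0.36 in WT mice (adjusted p = 0.0712 and 0.0935, edgeR). The fractalkine receptor gene Cx3cr1, which responds to a find-me signal, was at 4.11 ± 0.80 in TG mice (adjusted p = 0.0553, edgeR), and the integrin subunit Itgav, partner of the Itgb5 product, at -2.11 ± 0.57 in WT mice (adjusted p = 0.108). The list medians in WT mice were -0.63 for other phosphatidylserine receptors, -0.26 for other bridges and partners, -0.0044 for other engulfment machinery and -0.50 for sheddases and nuclear receptors, beside 0.11 over all genes tested. In TG mice they were -0.51, -0.60, -0.011 and -0.72, beside -0.04.

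Between TG and WT, edgeR called 0 of the 62 genes in Kupffer cells and 0 in MoM, with 5 and 6 at an unadjusted p below 0.05 against 5.94% and 6.47% of all genes. DESeq2 called 1 (Anxa1) and 0, against 1.79% and 1.01%. In Kupffer cells, Trem2, a lipid-sensing receptor, had 40.5 and 26.7 CPM in WT and 9.15 and 11.7 CPM in TG, with a log2 difference of -1.69 ± 0.55 (adjusted p = 0.731, edgeR). Anxa1 differed by 4.25 ± 0.98 (adjusted p = 0.731, edgeR), and by 2.58 without Kupffer TG replicate 2. The authors' deposited table, which appears to rest on the same Kupffer libraries, lists Trem2 at -1.67 (adjusted p = 0.00638) and Anxa1 at 4.28 (adjusted p = 0.00271). In MoM, the complement gene C1qa, whose product marks dead cells for uptake, differed by -2.39 ± 1.12 (adjusted p = 0.758, edgeR) and by 0.46 without MoM WT replicate 1.

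**Figure D5:**
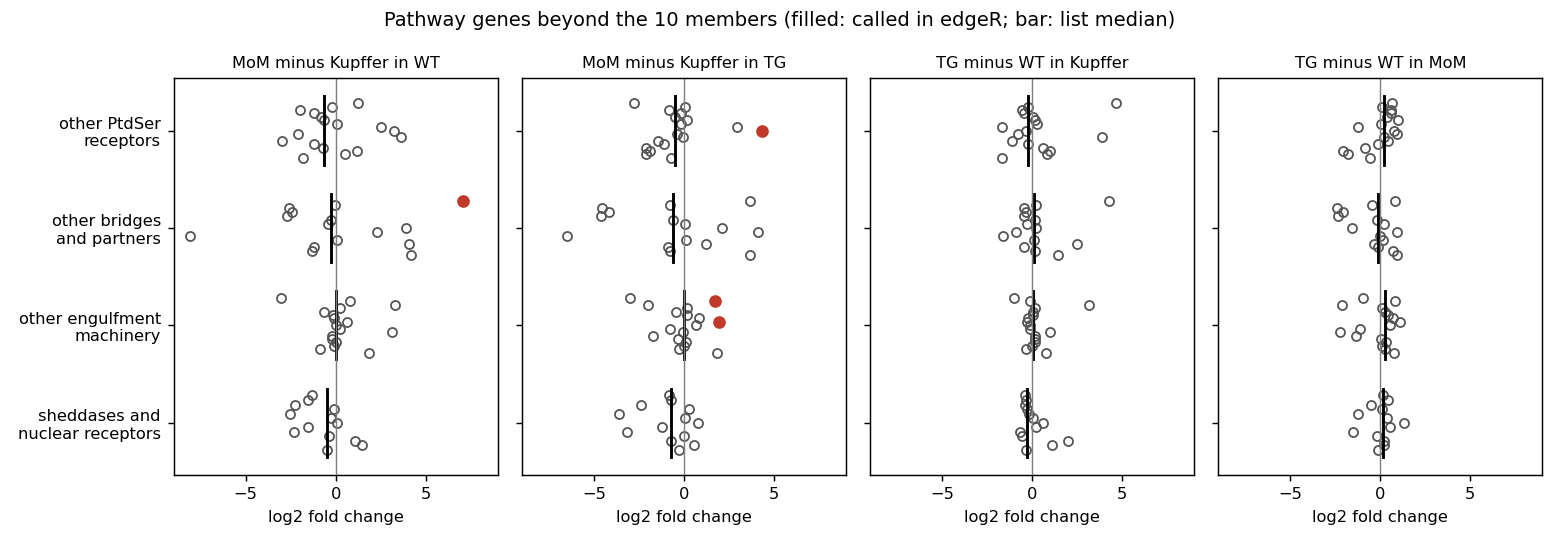
Log2 fold change (x axis, edgeR fit of 8 libraries) of the 62 tested genes of 4 pathway lists (y axis) in 4 comparisons, with list medians as vertical bars and called genes filled. The filled points are Anxa1 in WT mice and Havcr2, Abca7 and Dock5 in TG mice, all higher in MoM.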

How the data were processed

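STAR 2.5.2b and mm10 are named in the submitters' processing notes. The sources used here do not give how reads were counted, on which annotation or with which strand setting. The authors deposited raw counts, 1 whole number per gene symbol and library. Of counts from 1 to 19, 65.0% to 68.0% were even, as when both mates of a pair are counted, so counts may overstate independent fragments. Per the file headers, the authors' table of TG against WT holds a log2 fold change with its SE, p-values, a Wald statistic (a score) and baseMean, a mean of normalized counts.

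All 8 libraries were fitted as 4 groups with edgeR 4.0.16 (R 4.3.3): filterByExpr (15254 genes left, the 10 genes among them), TMM and the two-sided quasi-likelihood F-test, with Benjamini-Hochberg adjustment over all genes and calls at an adjusted p below 0.05. With 4 residual degrees of freedom, edgeR's common biological coefficient of variation came to 0.507. The SE is the log2 fold change divided by the square root of F. Exon lengths came from GENCODE M21 and promoters from RefSeq (GRCm38.p6), where all 10 genes matched; the proteins were not analysed here. The 10 genes, the pathway lists and the marker lists were chosen with earlier results of these data known. Named pathway genes are, per list and comparison, up to 4 called genes or, where none was called, the 2 with the smallest p, of which the text gives some. Cdh5 was named after its values were seen. As alternatives, a replicate block was added, the fit was limited to the 4 libraries compared, each library was left out, the low-count filter was dropped, DESeq2's size factors replaced TMM, and DESeq2 1.42.0 replaced edgeR. Added after seeing the data were DESeq2 on the 4 libraries compared and a fit without Kupffer TG replicate 2 and MoM WT replicate 1. Groups of 2 allow no test for outlying libraries.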

Additional observations from a re-analysis of the deposited data

How the results depend on the processing

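The 10 genes had 0 calls in each comparison with all libraries. This count stayed 0 with a replicate block, without the filter on low counts and with median-of-ratios size factors. Between MoM and Kupffer cells it became 3 in WT and 4 in TG mice with DESeq2. With DESeq2 on the 4 libraries compared it became 6 (Tyro3 among them) and 7, and with edgeR on those 4 it became 2 and 0. Without both Kupffer TG replicate 2 and MoM WT replicate 1 it became 6 and 4. Between TG and WT it became 1 in Kupffer cells (Itgb5) and 1 in MoM (Gas6) with DESeq2 on the 4 libraries. Leaving out 1 library gave 0 to 3 in WT mice, 0 to 4 in TG mice, 0 to 1 in Kupffer cells and 0 to 0 in MoM and for the interaction. The cause of these changes was not tested.

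Pathway genes called in WT mice numbered 1 with all libraries, 2 with no filter, 12 on the 4 libraries compared, 24 with DESeq2, 29 with DESeq2 on those 4, 26 without both libraries, and 0 to 12 on leaving out 1. In TG mice they numbered 3, and then 5, 0, 19, 23, 20 and 0 to 9, and 2 with size factors or the block. Between TG and WT in Kupffer cells 0 became 1 with DESeq2, 2 with DESeq2 on the 4 libraries and 0 to 2 on leaving out 1 library, in MoM it was 0 to 0, and for the interaction 0 to 1. All genes called numbered 178 in WT and 381 in TG mice. These became 258 and 520 with no filter, 1585 and 0 on the 4 libraries, 2867 and 2563 with DESeq2, 3905 and 3552 with DESeq2 on the 4, 2677 and 2130 without both libraries, and 0 to 1434 and 0 to 1026 on leaving out 1. Between TG and WT, DESeq2 called 251 genes in Kupffer cells, 141 in MoM and 47 for the interaction, DESeq2 on the 4 libraries called 187 and 222, and leaving out 1 library gave 0 to 257, 0 to 0 and 0 to 83, against 0 in edgeR.

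Without both libraries, differences of the opposite direction were 2.46 for Tyro3 and 2.97 for Mfge8 between MoM and Kupffer cells of TG mice. In Kupffer cells, TG against WT, they were 0.20 for Timd4, -0.55 for Gas6, -0.11 for Mfge8, -0.076 for Dock1, -1.10 for Itgb3 and -1.84 for Bcar1. In MoM, TG against WT, they were 0.31 for Axl, 1.21 for Timd4, 0.13 for Pros1, 0.78 for Itgb5, -0.019 for Elmo1 and 0.45 for C1qa. For the interaction they were 0.54 for Axl, 1.01 for Timd4 and 0.037 for Pros1.

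On leaving out 1 library, Axl ranged from -1.77 to 0.33, Timd4 from -3.62 to 1.24, Pros1 from -1.35 to 0.17, Itgb5 from -2.07 to 0.79 and C1qa from -3.31 to 0.46 between TG and WT MoM. In Kupffer cells, TG against WT, Timd4 ranged from -0.99 to 0.20, Gas6 from -0.55 to 1.76, Mfge8 from -0.11 to 4.66, Dock1 from -0.0757 to 0.56, Itgb3 from -1.10 to 4.82 and Bcar1 from -1.84 to 4.14. Between MoM and Kupffer cells Elmo1 ranged from -0.018 to 1.17 and Pros1 from -1.02 to 0.36 in WT mice, and Mfge8 from -1.76 to 2.97 and Tyro3 from -1.64 to 2.46 in TG mice. For the interaction Mertk ranged from -2.77 to 0.025, Axl from -1.10 to 1.00, Timd4 from -3.31 to 1.54 and Itgb5 from -0.70 to 2.16. Of 400 such values of the 10 genes, 19 had the opposite direction to the fit of all libraries.

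The replicate numbers are not said to pair libraries, and same-numbered libraries deviated together with r = -0.135 to 0.619 over the 6 pairs of groups, so the block is only an alternative. With the replicate block, all genes called went from 178 to 234 in WT and from 381 to 301 in TG mice, and the 10 genes stayed at 0. Depth limits Tyro3, at 0 to 4 counts in 3 libraries, and its fitted differences in TG mice, given above where they changed direction, rest on 4 counts in Kupffer TG replicate 1 and are no bound.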

Other observations

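For each of the 10 genes, the genes with the most similar level over the 8 libraries were sought among 10303 genes that averaged 5 CPM or more, by Pearson's r of log2(CPM + 0.5). The nearest to Timd4 were Cd5l (r = 0.998), C6 (0.997) and Ccdc148 (0.997), of which Cd5l and C6 are among the Kupffer cell markers used here. Those nearest to Axl were Sdc3, Creg1 (both 0.998) and Adgre1 (0.997), the last the gene of the macrophage antigen F4/80. Mertk was nearest to Scamp5, Sept8 and Rgl1 (each 0.998), and Itgb5 to BC017158 (0.995), Myom1 (0.992) and Dusp6 (0.991). Elmo1 was nearest to Clec4a4 (0.994), a C-type lectin gene.

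The bridging genes had other neighbours. Mfge8 was nearest to Dapk2 (r = 0.984), Adgrl1 (0.983) and S1pr1 (0.982), the last a sphingosine 1-phosphate receptor gene of endothelium and lymphocytes. Pros1 was nearest to Ctsl (0.982), Il10 (0.978) and Ccdc126 (0.971), and Dock1 to Il10 (0.991), Asah2 (0.987) and Ctsl (0.986), so Il10 and Ctsl were shared by both. Gas6 had the lowest values, with Tlr3 and Dnajc30 at 0.962 and Nt5c3b at 0.954. Tyro3 was nearest to Map4 (0.987), Sptan1 (0.982) and Sptbn1 (0.981). The 8 points fall into 4 groups and share the libraries that stand apart, so these values are descriptions over 8 libraries.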
